A study of Mus musculus with 686 samples.

Results

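The 4 rows described here are the mature mouse miRNAs mmu-miR-199a-3p, mmu-miR-199a-5p, mmu-miR-199b-5p and mmu-miR-214-3p, taken by name from the 1964 miRNAs of the deposited count table. The prefix mmu-, for mouse, is mostly left out after their levels have been given. They were followed across 13 tissues, 3 housing arms, 2 ages and 2 ways of ending the experiment, and fibroblast-rich tissues were set against parenchymal ones. A miRNA is a short RNA cut from a hairpin precursor. Each arm of the hairpin (5p and 3p) can be loaded into Argonaute, and bases 2 to 8, the seed, pair with sites in mRNAs. The miR-199 and miR-214 genes lie on the opposite strand within introns of the dynamin genes, and one of the miR-199a genes, Mir199a-2, shares the long noncoding transcript Dnm3os with Mir214. Both miRNAs are known from mesenchymal cells such as fibroblasts, smooth muscle cells and pericytes, where they have been tied to skeletal development, extracellular matrix production and fibrosis.

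The mature sequences are shown because 2 of the 4 rows are opposite arms of one hairpin and because one arm is shared between genes. Capitals mark the seed, and the sequences are those of RefSeq for GRCm38.p6, which held 3 of the 4 members.
mmu-miR-199a-5p: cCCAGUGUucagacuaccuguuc
mmu-miR-199a-3p: aCAGUAGUcugcacauugguua
mmu-miR-214-5p: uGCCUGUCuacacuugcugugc
mmu-miR-214-3p: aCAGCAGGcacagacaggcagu
mmu-miR-199b-5p has no entry there and is named only. The mature miR-199b-3p is the same letters as miR-199a-3p, and all 3 Mir199 hairpins hold that sequence, whereas only 2 of them, Mir199a-1 and Mir199a-2, hold miR-199a-5p. The 4 printed sequences have 4 distinct seeds. In the table the rows of miR-199a-3p and miR-199b-3p differed by a median of 0.0944% and at most 0.402%, and 362 of their values were a whole number plus 0.5, as when each read is divided between both rows. The level given for miR-199a-3p is therefore a shared one from 3 genes, and only the 5p arms tell the Mir199b gene from the Mir199a genes.

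In GRCm38.p6, Mir199a-2 lies at chr1:162217814-162217923 and Mir214 at chr1:162223368-162223477, both on the plus strand and 5444 bases apart. Both are in exons of Dnm3os and in the Dnm3 gene, which runs on the minus strand. Mir199b lies at chr2:32318460-32318569 on the plus strand in an intron of Dnm1, which runs on the minus strand. Mir199a-1 lies at chr9:21496495-21496564 on the minus strand in an intron of Dnm2, which runs on the plus strand. The authors' table was made on GRCm39, so these positions are those of the RefSeq build and were not used to count reads.

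Small RNA was sequenced from 686 libraries of 83 female BALB/cAnNTac mice in 3 arms. Spaceflight (FL) mice lived on the International Space Station, habitat ground control (HGC) mice in flight hardware with matched conditions on Earth, and vivarium ground control (VGC) mice in ordinary cages. No genotype or treatment beyond housing is given, and the mice were 3 or 8 months old. In live animal return (LAR, 348 libraries) flight lasted 39.5 days and tissue was taken 2 to 4 days after landing, while in the terminated set (TERM, 338 libraries) flight mice were killed on orbit 22 to 24 days after launch. Matched controls were collected for each. Carcasses of TERM were frozen whole and dissected after thawing, except for the spleen, which was removed fresh into RNA Later, whereas LAR tissue was snap frozen, so that the end of the flight and the handling of tissue cannot be told apart. Each tissue, arm and collection held 2 to 10 libraries. Brain of LAR and pancreas of TERM came from 3 month mice alone.

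The smallest library held 0.181 M miRNA counts, the median one 3.88 M and the largest 30.5 M. Levels are given as CPM, the count after each library's miRNA total has been scaled to 1 M. The libraries held a median of 15332 counts of miR-199a-3p, 1565 of miR-199a-5p, 200.0 of miR-199b-5p and 2105 of miR-214-3p, so counting error was smallest for miR-199a-3p and largest for miR-199b-5p. Of the 686 libraries, 166 (24.2%) had a miRNA profile, computed without these rows, that was closest to the median of a tissue other than the labelled one. Of those, 119 were in 11 of the 44 sequencing pools. Mesenteric fat had 46 such libraries of 57 and brain had 0 of 25. In labelled liver, for example, the liver miRNA miR-122-5p had a median of 349018 CPM in libraries closest to liver and 265 CPM in the others. All libraries are kept under their labels here, and the tests were repeated without those libraries.

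Brain had the lowest median of the 13 tissues for all 4 miRNAs, while the tissue with the highest median was subcutaneous fat (SCAT) for 3 of them and gonadal fat (GAT) for mmu-miR-214-3p. mmu-miR-199a-3p had its highest median in SCAT, at 8102 CPM (lowest 2061, highest 17543, n = 58), followed by lung at 7529 CPM (984 to 12267, n = 58). In descending order the medians of the next tissues were 5987 CPM in spleen, 5644 in mesenteric fat (MAT), 4611 in kidney, 4517 in GAT, 3886 in heart and 3796 in brown fat (BAT). They were 3101 CPM in pancreas, 3087 in diaphragm, 3028 in thymus, 2656 in liver and 168 in brain (79.9 to 2989, n = 25). Outside the brain the ranges of all tissues overlapped, and miR-199a-3p was between the 25th and the 46th most abundant miRNA in every one of them. In brain it was the 196th, and 3 of the 25 brain libraries were above 1000 CPM.

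mmu-miR-199a-5p, the other arm of the same hairpins, was also highest in SCAT, at 832 CPM (132 to 2951), and next highest in spleen, at 586 CPM (120 to 2176). Its other medians fell from 513 CPM in lung through 464 in MAT, 441 in GAT, 407 in kidney, 367 in thymus, 358 in BAT, 350 in heart, 291 in liver and 275 in pancreas to 261 in diaphragm. The place of GAT depended on the collection, at 289 CPM in LAR, 12th of 13 tissues, and 627 CPM in TERM, the 2nd. In brain the median was 20.1 CPM (6.68 to 154). The brain libraries were low as a group, but the highest of them lay above the lowest of every other tissue.

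mmu-miR-199b-5p, the arm that marks the Mir199b gene, followed another order. It was highest in SCAT, at 152 CPM (7.15 to 636), then in pancreas at 123 CPM (41.9 to 474, n = 39) and in lung at 112 CPM (9.89 to 245). The fat depots followed, with medians of 77.0 CPM in GAT, 76.2 in MAT and 67.5 in BAT, above 53.6 in spleen, 45.7 in thymus, 41.1 in heart, 37.3 in kidney, 29.7 in diaphragm and 17.9 in liver. The brain median was 1.89 CPM (0 to 39.3), and a brain library with a count of 0, of which there were 2, allows up to 3 counts at 95% confidence. Pancreas was thus near the top for this arm and near the bottom for miR-199a-5p. Its place depended on the collection, since 28 of its 39 libraries were from LAR, where its median of 103 CPM was the fourth, behind SCAT, MAT and lung, while in TERM its 289 CPM (n = 11) was above the 186 CPM of SCAT. Medians within a collection were taken after seeing the data.

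mmu-miR-214-3p was highest in GAT, at 1592 CPM (169 to 7537, n = 60), in SCAT, at 1433 CPM (215 to 5492), and in diaphragm, at 1063 CPM (127 to 3671, n = 59). Lung had 989 CPM and heart 727. The remaining medians were 484 CPM in spleen, 457 in kidney, 451 in MAT, 444 in BAT, 340 in thymus, 259 in pancreas, 204 in liver and 25.4 in brain (12.1 to 214). Here 5 of the 7 fibroblast-rich tissues had a higher median than every parenchymal or lymphoid one, and the exceptions were MAT and BAT. Both lay above spleen (481 CPM) without libraries of another profile, at 489 CPM in MAT (n = 11) and 560 CPM in BAT (n = 40), so that all 7 medians then did. MAT and spleen could not be told apart there. Within mice MAT was 0.46 higher on the log2 scale (SD 1.08, 6 of 8 mice, adjusted p = 0.47 by an exact permutation test). The MAT profile used for matching was itself a median over all MAT libraries, most of which had another profile. The top of the order differed between the collections, with SCAT at 1778 CPM and GAT at 1092 in LAR, and GAT at 1706 CPM and SCAT at 1239 in TERM.

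**Figure D1:**
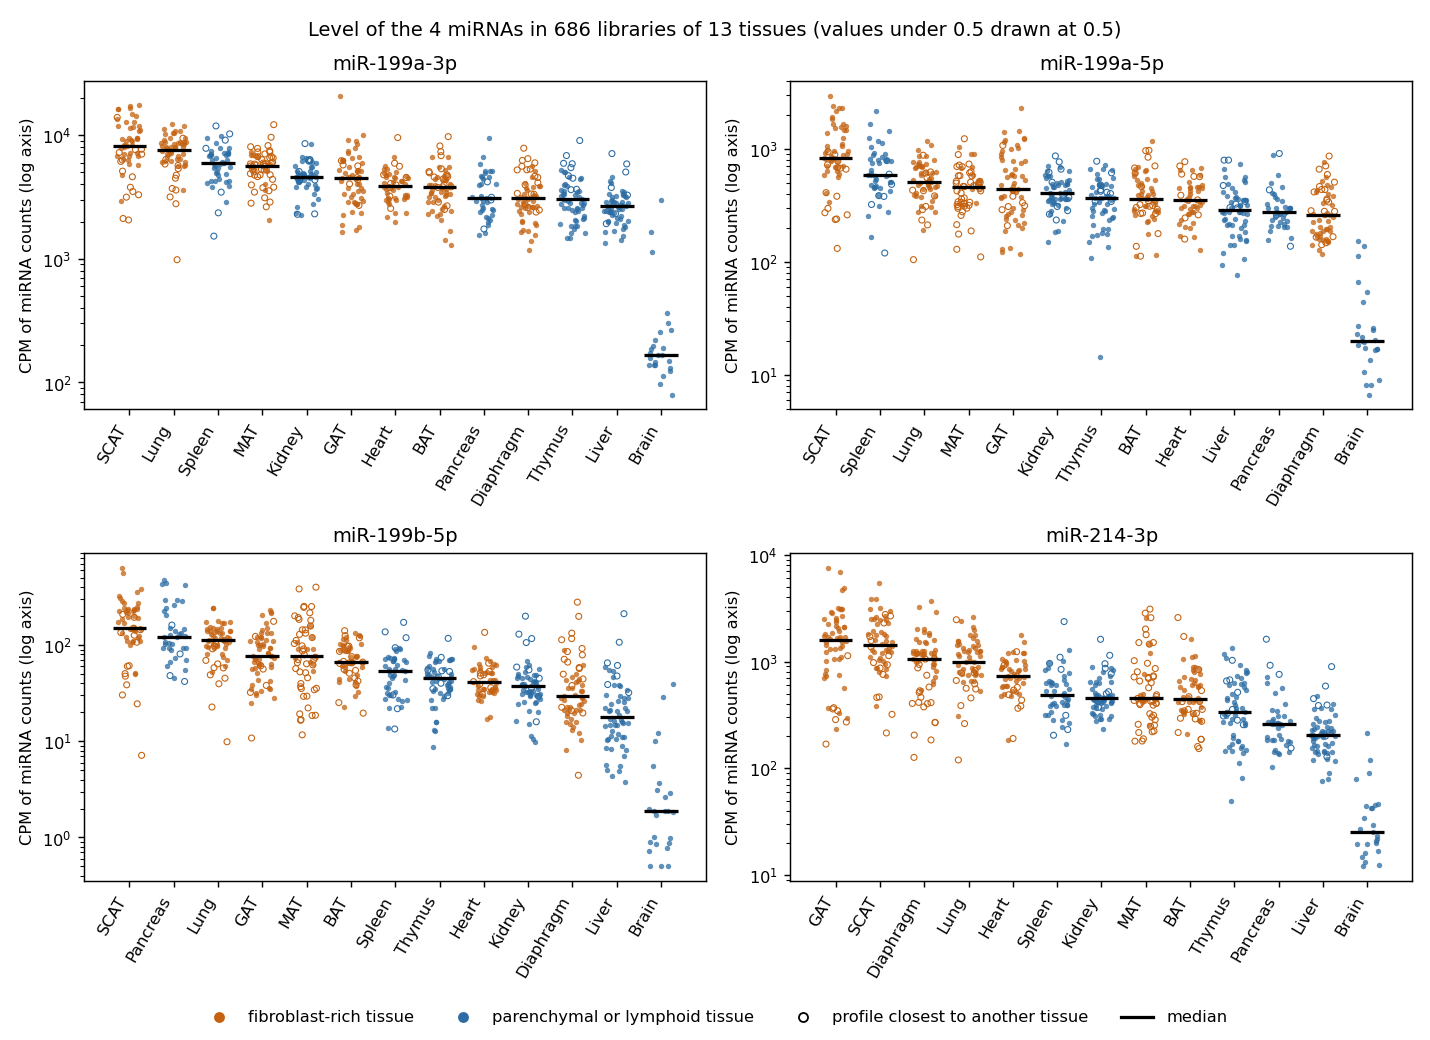
Level of each of the 4 miRNAs by tissue, in CPM of miRNA counts on a log axis; each point is 1 library of the 686, open points are libraries whose profile was closest to another tissue, and bars are medians. Tissues run from the highest to the lowest median in each panel, with brain last in all 4, at medians of 168, 20.1, 1.89 and 25.4 CPM.

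Neighbours in these orders mostly could not be told apart. The pairs were set by the medians of these same libraries and are the closest ones by construction, which favours few passes. Each pair of neighbouring tissues was compared within mice that had both, by a 2-sided sign-flip permutation test, exact where fewer than 10 mice had both, with Benjamini-Hochberg adjustment over the 48 pairs of 4 miRNAs. Of the 48, 6 passed at an adjusted p of 0.05, and none of those was a pair of miR-199a-3p. miR-199a-5p was higher in SCAT than in spleen by 0.68 on the log2 scale (SD 1.09, higher in 30 of 36 mice, adjusted p = 0.0082). miR-199b-5p was higher in diaphragm than in liver by 0.80 (SD 1.597, 40 of 57 mice, adjusted p = 0.0080). miR-214-3p was higher in SCAT than in diaphragm by 0.66 (SD 1.26, 39 of 57 mice, adjusted p = 0.0080) and higher in heart than in spleen by 0.52 (SD 0.74, 33 of 45 mice, adjusted p = 0.0024). The other steps that passed led down to the brain. In exact permutation tests, miR-199a-5p was 3.51 higher in diaphragm than in brain (SD 1.28, 9 of 9 mice, adjusted p = 0.031) and miR-214-3p 2.50 higher in liver than in brain (SD 1.12, 9 of 9 mice, adjusted p = 0.031). For miR-199a-3p the step from liver to brain was 3.51 (8 of 9 mice), with an adjusted p of 0.054 in the exact permutation test. Without libraries of another tissue's profile, a setting chosen after seeing the data, 4 of the 48 passed. The steps from diaphragm to liver for miR-199b-5p and from liver to brain for miR-214-3p were among them, and the other 2 were steps of miR-199a-3p, which was 0.35 higher in SCAT than in lung (28 of 33 mice, adjusted p = 0.019) and 0.45 higher in lung than in spleen (19 of 23 mice, adjusted p = 0.0067) by the permutation test.

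The comparison of tissue classes asked whether these miRNAs are at higher levels where connective tissue cells are many. The fibroblast-rich class held the 4 fats, lung, heart and diaphragm, and the other class held liver, kidney, pancreas, brain, spleen and thymus. In bulk tissue, fewer cells of a type and less RNA per cell cannot be told apart. In the 60 mice with at least 2 tissues of each class, the mean difference of log2(CPM + 1) was 1.40 for miR-214-3p (SD 0.58, from -0.03 to 2.95, above 0 in 59 mice). It was 0.86 for miR-199b-5p (SD 0.73, above 0 in 51 mice), 0.53 for miR-199a-3p (SD 0.53, 52 mice) and 0.38 for miR-199a-5p (SD 0.58, 42 mice). These differences amount to 2.65-fold, 1.81-fold, 1.44-fold and 1.30-fold. All 4 passed the 2-sided sign-flip permutation test with adjusted p-values of 1.3e-05 to 2e-05, where the smallest unadjusted p that 100000 resamples can give is 1e-05.

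Brain carried part of these differences. The 9 mice with a brain library had mean differences of 1.40, 1.04, 1.77 and 2.06 for miR-199a-3p, miR-199a-5p, miR-199b-5p and miR-214-3p, and the 51 mice without one had 0.37, 0.27, 0.70 and 1.29. With brain left out of the class, a choice made after seeing the data, the differences over the 60 mice were 0.42, 0.29, 0.77 and 1.31 and all 4 still passed. Without the libraries that had another tissue's profile they were 0.61, 0.53, 1.05 and 1.87 in 57 mice. When counts were scaled to all 7 RNA classes in place of miRNAs, the differences were 0.23, 0.077, 0.48 and 1.06, and that of miR-199a-5p no longer passed (adjusted p = 0.36).

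**Figure D2:**
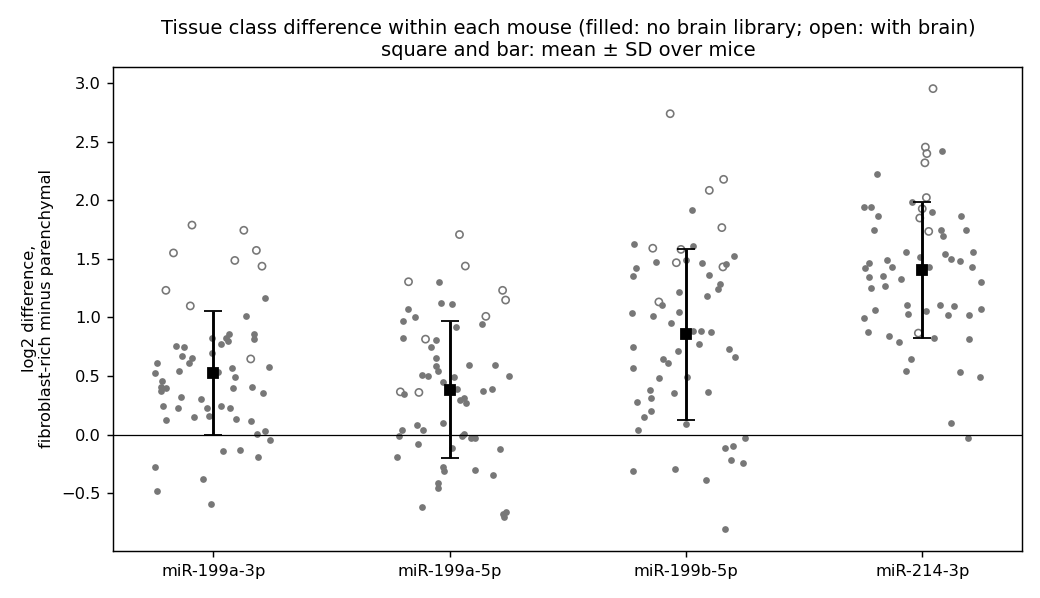
Mean log2(CPM + 1) of fibroblast-rich tissues minus that of parenchymal and lymphoid tissues in each of 60 mice, with open points for the 9 mice that had a brain library; squares and bars are the mean ± SD over mice. The miR-214-3p values lie above 0 in 59 of 60 mice, and those of miR-199a-5p in 42.

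The size of the class difference was not the same for the 4 miRNAs. Within mice, the difference of miR-214-3p exceeded that of miR-199a-5p by 1.02 on the log2 scale (SD 0.51, 57 of 60 mice), that of miR-199a-3p by 0.88 (SD 0.56, 56 mice) and that of miR-199b-5p by 0.55 (SD 0.67, 47 mice). The difference of miR-199b-5p exceeded that of miR-199a-5p by 0.48 (53 mice) and that of miR-199a-3p by 0.33 (44 mice). All 5 of these passed the sign-flip permutation test over the 6 pairs. The opposite arms of the Mir199a hairpins, miR-199a-3p and miR-199a-5p, were 0.14 apart (37 mice), which passed with all tissues but not without spleen and thymus (0.10, adjusted p = 0.085) nor without libraries of another profile (0.08, adjusted p = 0.25). miR-214-3p therefore had the steepest contrast between the classes, and the arms of miR-199a the shallowest, with no order between them that held in those settings.

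The same contrast was fitted over all miRNAs with edgeR's quasi-likelihood test on all 686 libraries. Several libraries came from each mouse and the fit treats them as independent, so that its p-values may be too small. The 4 members were higher in the fibroblast-rich class, by 2.05 on the log2 scale for miR-214-3p (SE 0.08, 4.15-fold), 1.31 for miR-199b-5p (SE 0.08, 2.47-fold), 1.07 for miR-199a-3p (SE 0.05, 2.10-fold) and 1.01 for miR-199a-5p (SE 0.06, 2.02-fold). All 4 were called at an adjusted p of 0.05. Calls were common in this contrast, at 66.8% of 1253 miRNAs tested and 37.9% in the higher direction alone, and the median over all miRNAs was 0.03. Without brain the estimates were 1.49, 0.73, 0.49 and 0.41, all still called, where 76% of miRNAs were called, 46.4% in the higher direction, and the median was 0.16. They were 2.26, 1.36, 1.06 and 1.07 without libraries of another profile, all called, where 71.2% of miRNAs were called and 35.9% in the higher direction. The minor arm miR-214-5p, which reached no more than a median of 11.7 CPM in SCAT, was higher by 1.07 (SE 0.07).

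Among 18 other miRNAs listed for stromal and smooth muscle cells, 12 were higher in the fibroblast-rich class, 4 were lower and 2 did not pass, with a median of 0.41. The counts were 12 higher and 5 lower without libraries of another profile, with a median of 0.69. The highest were miR-10b-5p at 1.27 (SE 0.13), which is hosted in a Hox cluster, the smooth muscle miRNA miR-145a-5p at 1.08 (SE 0.06) and miR-100-5p at 1.01 (SE 0.07). The 4 lower ones were miR-21a-5p at -0.69 and the miR-29 family, which targets collagen mRNAs, at -0.31 for miR-29a-3p, -1.03 for miR-29b-3p and -0.78 for miR-29c-3p. The estimate of miR-214-3p was above that of each of the 18.

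Since miR-199a-5p and miR-199b-5p differ in sequence, the share of miR-199b-5p in the sum of both sets the counts of the Mir199b 5p arm against those of Mir199a. It is a share of counts and not of molecules, since the arms may be ligated unequally, which was not tested. This share had its highest median in pancreas, at 29.8% (11.9% to 64.6%, n = 39), and was 18.1% in lung, 17.3% in BAT, 15.7% in SCAT, 15.0% in MAT and 13.7% in GAT. It was 10.7% in diaphragm, 10.6% in heart, 10.5% in thymus, 8.70% in brain, 8.01% in kidney, 6.58% in spleen and 6.24% in liver. Within mice the share was 14.2 percentage points higher in pancreas than in lung, its neighbour in the order (SD 15.1, 33 of 38 mice, adjusted p = 0.00012 by the permutation test over 12 pairs). GAT exceeded diaphragm by 2.77 points (SD 6.92, 41 of 59 mice, adjusted p = 0.017), and no other neighbours passed. Without libraries of another profile 4 of the 12 pairs passed, with pancreas again above lung by 14.3 points (26 of 29 mice). Pancreas was the highest in both collections, with a median share of 25.9% in LAR (n = 28) and 53.1% in TERM (n = 11). The medians of SCAT, GAT, BAT and lung were above those of spleen, thymus, kidney and liver in both, whereas MAT had 19.6% in LAR and 9.26% in TERM, below the 11.6% of thymus.

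**Figure D3:**
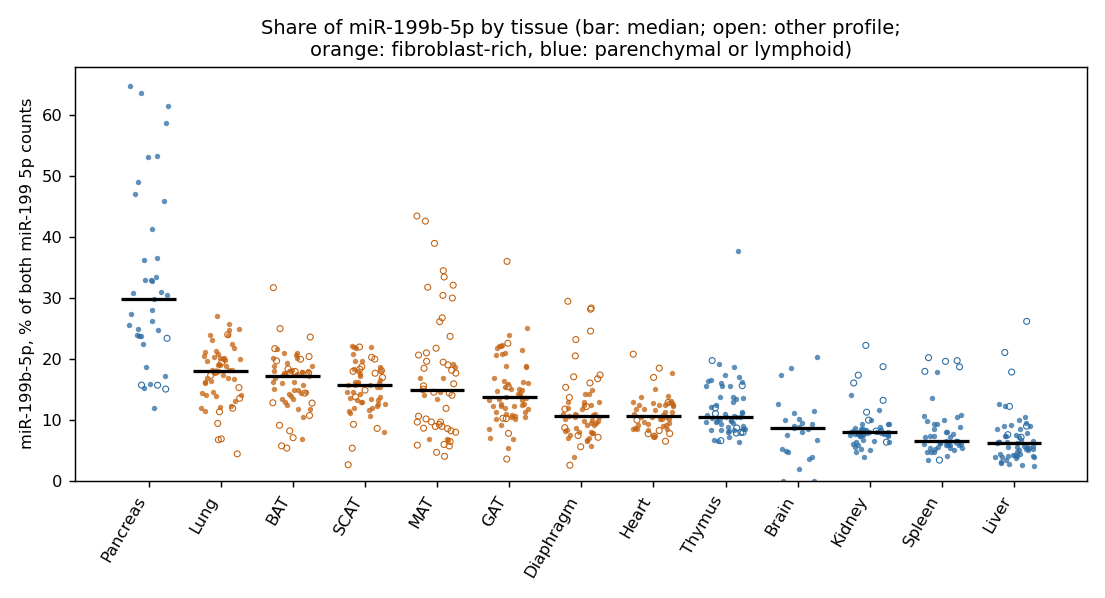
Share of miR-199b-5p in the sum of miR-199a-5p and miR-199b-5p counts (percent, y axis) by tissue; each point is 1 library, open points are libraries with another tissue's profile, and bars are medians. Pancreas libraries range from 11.9% to 64.6% around a median of 29.8%, and liver has the lowest median at 6.24%.

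Ratios between the arms are described by tissue medians, whose differences were not tested, and single libraries spread widely around them. The 3p arms of the miR-199 hairpins outnumbered both 5p arms in the median library of every tissue, from 14.5-fold in pancreas to 22.8-fold in lung. GAT libraries ran from 3.67-fold to 44.4-fold, and GAT had the lowest median, 13.9-fold, without libraries of another profile. miR-214-3p outnumbered miR-214-5p by a median of 54.2-fold in liver, 58.5-fold in spleen and 65.4-fold in pancreas, against 253-fold in GAT and 252-fold in diaphragm. The libraries ran from 14.6-fold to 588-fold in liver and from 26.1-fold to 3245-fold in GAT, and the median library held 21 counts of miR-214-5p. The 12 libraries of 686 with no miR-214-5p count, 3 of them of the 39 from pancreas, were left out of this ratio, which makes it too low where levels are low. The ratio of miR-214-3p to miR-199a-5p, which comes from Mir199a-1 as well as from the transcript shared with Mir214, ran from 0.742 in liver and 0.829 in spleen to 2.99 in GAT and 4.13 in diaphragm. These ratios are between small RNAs that can differ in how well they are ligated, so their size is not a ratio of molecules, whereas their order over tissues does not rest on that scale.

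Over the 13 tissue medians of log2(CPM + 1) the 4 members had Pearson correlations of 0.79 to 0.99 with each other, the highest between miR-199a-3p and miR-199a-5p. These points share the low brain value. Within single tissues, over the libraries that matched their label, miR-199a-5p and miR-199b-5p had correlations of 0.73 to 0.93 in 11 of 13 tissues, and of 0.13 in MAT (n = 11) and 0.19 in pancreas (n = 35). The pair miR-199a-3p and miR-214-3p had a negative correlation in 11 of 13 tissues, down to -0.59 in MAT and -0.44 in heart and pancreas, and a positive one in brain (0.76, n = 25) and thymus (0.27, n = 49). Libraries of a tissue share sequencing pools and differ in depth, and CPM values share a denominator, so these correlations are given as descriptions.

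A median of at least 10 CPM in at least 1 tissue was reached by 602 miRNAs, the members and the other arms of their hairpins included. Outside those hairpins, the 5 whose tissue medians were most like the mean of the members were miR-224-5p (r = 0.92 over 13 tissues), miR-322-5p (0.90), miR-145a-5p (0.88), miR-28a-3p (0.88) and miR-27a-3p (0.87). All 5 had their lowest median in brain. miR-224-5p was highest in lung, at 115 CPM, and miR-145a-5p in GAT, at 20756 CPM. Without libraries of another profile, miR-224-5p, miR-322-5p and miR-27a-3p remained among the closest 5.

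Spaceflight was compared with both kinds of ground housing in each tissue. None of the 4 miRNAs passed in any of 13 tissues. In LAR, 0 of 52 pairs of miRNA and tissue were called by edgeR between FL and HGC, where 1.54% of all tests were called, 0 of 52 between FL and VGC (0.736%) and 0 of 52 between HGC and VGC (0.176%). In TERM the counts were also 0 of 52 in each comparison, against 0.307%, 0.712% and 0.251% of all tests. At an unadjusted p under 0.05 edgeR had 4, 4 and 3 pairs in LAR and 2, 1 and 1 in TERM. DESeq2 called 0 in each as well, with 3, 2 and 2 pairs at an unadjusted p under 0.05 in LAR and 3, 4 and 3 in TERM, and gave no adjusted p for 1 to 5 pairs. The lowest adjusted p over the 6 comparisons was 0.175 in edgeR. edgeR called 0 of 48 pairs in 12 tissues in each comparison without libraries of another profile, against 0.13%, 0.315% and 0.0555% of all tests in LAR and 0.00957%, 0.0287% and 0.00957% in TERM, with 5, 5 and 3 and with 0, 2 and 2 pairs at an unadjusted p under 0.05.

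The estimates lay on both sides of 0, though not always evenly. Between FL and VGC of TERM, miR-199a-5p was below 0 in 11 of 13 tissues and miR-214-3p in 9, while miR-199a-3p was above 0 in 9. Without sequencing pools in which over 1 in 3 libraries had another profile, 36 of 52 TERM estimates between FL and HGC were below 0. Between FL and HGC they ran from -0.77 for miR-199b-5p in MAT to 0.93 for miR-214-3p in heart in LAR, with a median of 0.01 and a median SE of 0.32, and 26 of the 52 were above 0. In TERM they ran from -0.95 for miR-214-3p in thymus to 1.02 for the same miRNA in pancreas, with a median of 0.01 and a median SE of 0.35. The pancreas estimate ran from 0.39 to 1.34 with single libraries left out. Outside brain, the TERM estimates were between -0.46 and 0.39 without libraries of another profile. Differences of the size of these errors were not detectable with 2 to 10 libraries in a group.

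miR-214-3p in heart of LAR shows the scale. It had 834 to 1238 CPM in 6 FL libraries (median 1195), 183 to 1031 in 6 HGC libraries (median 644) and 365 to 1067 in 10 VGC libraries (median 727). In 4 of the 6 FL hearts the level was above that of every control, and the lowest FL heart lay within the range of both control groups. The log2 difference was 0.93 from HGC (SE 0.37, adjusted p = 0.28) and 0.85 from VGC (SE 0.32, adjusted p = 0.21) in edgeR, and both comparisons share the FL libraries. miR-199a-3p in the same hearts had medians of 3070 CPM in FL, 4156 in HGC and 4253 in VGC, with an estimate of -0.62 from HGC.

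In brain of LAR, miR-199a-3p had 79.9, 124, 138 and 255 CPM in FL, 96.9, 137, 148 and 267 in HGC, and 113, 139, 174 and 2989 in VGC. One VGC library was far above the other 11, which overlapped. The edgeR estimate was -2.86 between FL and VGC (SE 0.93, adjusted p = 0.30), and with single libraries left out it ranged from -3.40 to -0.33. The same VGC library held the highest brain levels of the other members, at 154 CPM of miR-199a-5p, 39.3 of miR-199b-5p and 214 of miR-214-3p, against highest FL levels of 43.8, 5.51 and 29.7 CPM. In brain of TERM, miR-199b-5p had 0.779, 2.66, 3.11 and 29.2 CPM in FL and 0, 0.853, 0.991 and 1.71 in VGC, with an edgeR estimate of 3.00 (SE 1.04, adjusted p = 0.43) that ranged from 0.93 to 3.47 with single libraries left out.

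**Figure D4:**
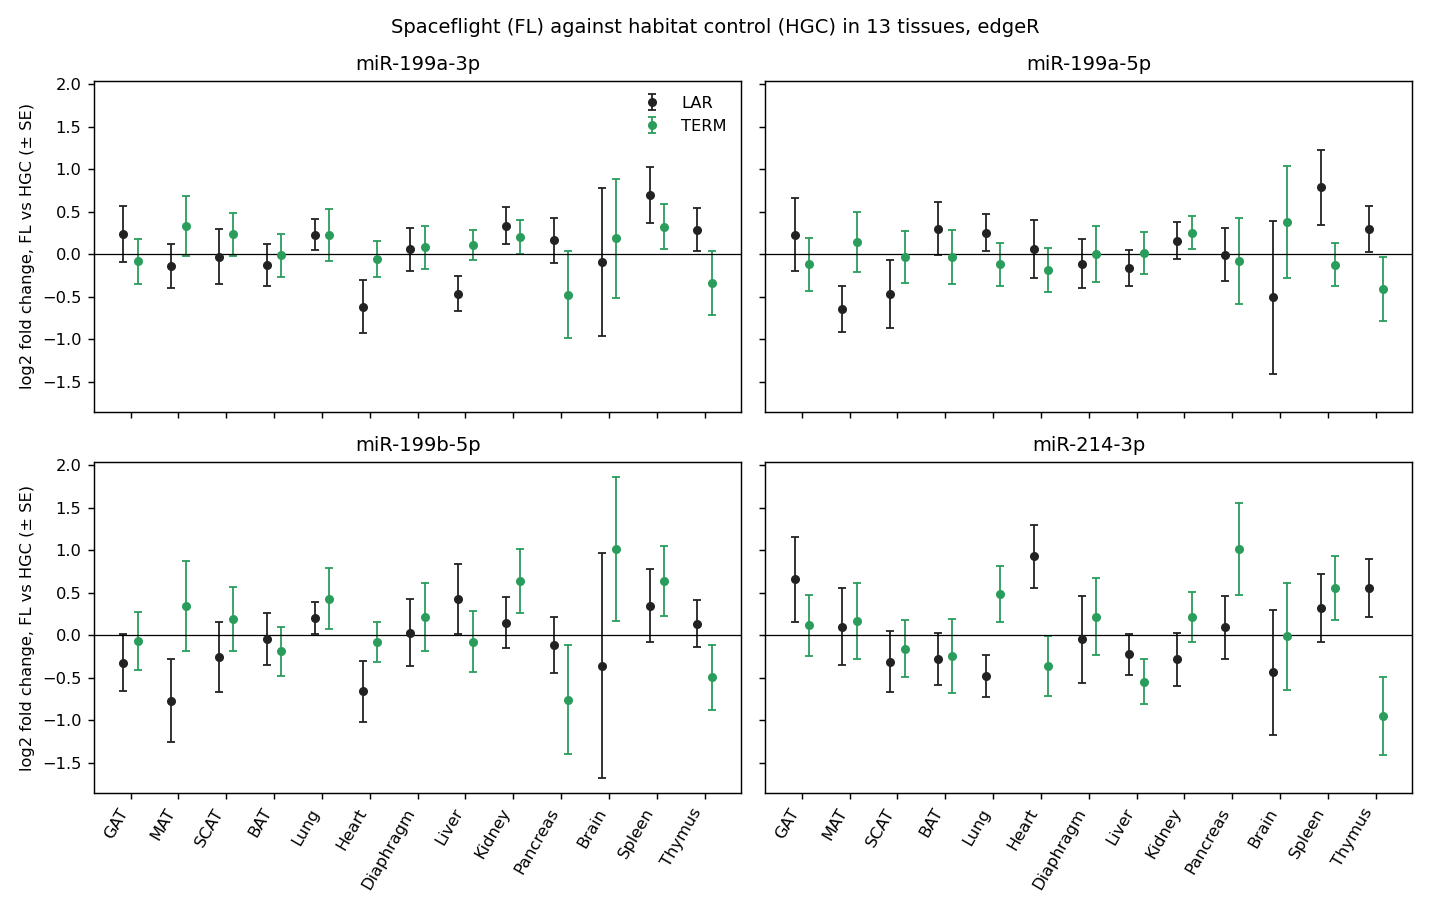
edgeR log2 fold change of FL over HGC (y axis) for each miRNA in 13 tissues, in LAR and in TERM; points are estimates and bars ± 1 SE. The estimates lie between -0.95 and 1.02 on both sides of 0, with the widest bars in brain, and none passed at an adjusted p of 0.05.

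The tissues of a mouse were then pooled into 1 value, the mean deviation from the other libraries of the same tissue and collection, for mice with at least 5 tissues. With 10 mice in each arm of LAR and of TERM, none of 24 differences passed a 2-sided permutation test (lowest adjusted p = 0.57), and 1 had an unadjusted p under 0.05. That was miR-199a-3p between FL and VGC of TERM, with deviations of -0.06 to 0.23 in FL (median 0.05) and -0.31 to 0.21 in VGC (median -0.07). The groups overlapped, 10 of 10 FL mice were above the VGC mean, and the difference was 0.15 (SE 0.06, p = 0.024, adjusted p = 0.57 by the permutation test). The 24 differences ran from -0.20, for miR-214-3p between HGC and VGC of TERM, to this value, with standard errors of 0.06 to 0.15.

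Age was compared as 8 against 3 months, averaged over arms. In LAR, 0 of 48 pairs in 12 tissues were called by edgeR, against 0.296% of all tests, with 5 at an unadjusted p under 0.05, and DESeq2 called 0, with 8 at an unadjusted p under 0.05. In TERM, 3 of 44 pairs in 11 tissues were called, against 2% of all tests, in MAT and thymus, with 9 at an unadjusted p under 0.05, and DESeq2 called 4, with 10 at an unadjusted p under 0.05. In LAR 1 of 44 pairs was called without libraries of another profile, against 1.54% of all tests, and 1 of 40 in TERM, against 0.615%, both of them miR-214-3p in thymus. The test of whether the flight difference itself changed with age called 0 of 48 in LAR with edgeR, against 0.113% of all tests, with 2 at an unadjusted p under 0.05, and DESeq2 called 0, with 2 at an unadjusted p under 0.05. It called 0 of 44 in edgeR without libraries of another profile, against 0.0307% of all tests, with 2 at an unadjusted p under 0.05.

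In thymus of TERM, miR-214-3p had 49.4 to 388 CPM in 13 libraries of 3 month mice (median 149) and 159 to 1028 in 15 libraries of 8 month mice (median 313). The ranges overlapped, with the older mice higher by 1.43 on the log2 scale (edgeR, SE 0.30, adjusted p = 0.011), where 3.94% of miRNAs tested in that tissue were called. Without libraries of another profile the difference was 1.05 (adjusted p = 0.016). In thymus of LAR the medians were 343 CPM at 3 months (170 to 1337) and 701 CPM at 8 months (328 to 1177), a difference of 0.66 that did not pass (SE 0.25, adjusted p = 0.16), and that was 0.73 with an adjusted p of 0.0499 without libraries of another profile. None of the 18 stromal miRNAs was called in thymus of TERM. The summed level of 5 blood and lymphoid markers in thymus of TERM had a median of 281159 CPM at 3 months (22900 to 466447) and 257739 at 8 months (13570 to 383199), and that of 2 smooth muscle markers 27743 (17838 to 63207) and 35253 (15327 to 64570). None of these markers had a median of 0, and their part in the result was not tested.

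In MAT of TERM, miR-199a-3p had 3113 to 12153 CPM in 15 libraries of 3 month mice (median 6618) and 2044 to 6346 in 14 of 8 month mice (median 4814). miR-199b-5p had 11.7 to 201 CPM at 3 months (median 90.4) and 16.5 to 98.4 at 8 months (median 48.7). The ranges overlapped, and both were lower at 8 months, by -0.98 (SE 0.24, adjusted p = 0.0070) and -1.49 (SE 0.36, adjusted p = 0.0068) in edgeR, where 13.9% of miRNAs in that tissue were called. The call of miR-199a-3p was lost when library totals replaced TMM factors (-0.54, adjusted p = 0.092) and without the sequencing pools in which over 1 in 3 libraries had another tissue's profile (-0.66, adjusted p = 0.069). Of these MAT libraries 13 of 14 at 8 months and 9 of 15 at 3 months had another tissue's profile, and with 1 older library left the fit could not be made without them. Blood and lymphoid markers summed to a median of 131105 CPM at 8 months (22443 to 209237) and 43740 at 3 months (4994 to 170523), and smooth muscle markers to 63889 (28946 to 186961) and 158930 (19809 to 467993). No marker had a median of 0, and their part in the result was not tested. Of the stromal list 5 of 18 fell and none rose, among them miR-143-3p by -1.84, miR-145a-3p by -1.72, miR-152-3p by -1.24, miR-29c-3p by -1.20 and miR-22-3p by -0.99. In the same libraries miR-214-3p had medians of 727 CPM at 8 months and 447 at 3 months, with a difference of 0.50 (SE 0.34, adjusted p = 0.34 in edgeR), and miR-199a-5p had a difference of -0.68 (SE 0.27, adjusted p = 0.094 in edgeR). In LAR, MAT gave 0.07 for miR-199a-3p and -0.04 for miR-199b-5p.

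A test of whether the age difference itself differed between LAR and TERM, added after seeing the data, called 0 of 44 pairs with edgeR, against 1.24% of all tests, with 9 at an unadjusted p under 0.05 and a lowest adjusted p of 0.093, and was not run in DESeq2. The same test called 0 of 40 with edgeR without libraries of another profile, against 0.152% of all tests, with 5 at an unadjusted p under 0.05. For miR-214-3p in thymus that test gave -0.91 (SE 0.44, adjusted p = 0.54), and in MAT it gave 0.95 for miR-199a-3p (SE 0.31, adjusted p = 0.093) and 1.34 for miR-199b-5p (SE 0.56, adjusted p = 0.15). An age difference in TERM alone is therefore not shown for these miRNAs.

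Between LAR and TERM, 5 of 52 pairs were called, against 6.81% of all tests, 2 of them higher and 3 lower in LAR, and DESeq2 called 7. The share is close to that of all miRNAs. It was 4 of 48 without libraries of another profile, against 7.64%, and in 3 month mice alone 3 of 52, against 2.4%. The 5 were miR-199a-3p and miR-199b-5p in pancreas, miR-199b-5p in kidney and MAT, and miR-214-3p in thymus. The pancreas and thymus pairs were called in both of those settings, and miR-199a-5p in thymus was called in the former, at 0.52 higher in LAR (edgeR adjusted p = 0.024).

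In pancreas, miR-199a-3p had 1556 to 5175 CPM in 28 libraries of LAR (median 2659) and 3931 to 9493 in 11 libraries of TERM (median 4606). miR-199b-5p had 41.9 to 295 CPM in LAR (median 103) and 48.2 to 474 in TERM (median 289). Most TERM libraries were above most LAR libraries, with overlap in both miRNAs, and the differences, LAR minus TERM, were -0.78 (SE 0.19, adjusted p = 0.0034) and -1.29 (SE 0.27, adjusted p = 0.00064) in edgeR, where 15.9% of miRNAs in that tissue were called. In 3 month mice alone, the age that both collections have, they were -0.74 (adjusted p = 0.044) and -1.24 (adjusted p = 0.010). miR-199a-5p had medians of 290 CPM in LAR and 272 in TERM with a difference of 0.10 (SE 0.24, adjusted p = 0.85), and miR-214-3p 265 and 185 CPM with a difference of 0.61 (SE 0.31, adjusted p = 0.16). The 2 miRNAs that were higher in TERM are the 3p arm shared by all 3 Mir199 genes and the 5p arm of Mir199b, while miR-199a-5p and miR-214-3p gave estimates above 0 that did not pass. The 3 pancreas markers summed to a median of 103592 CPM in LAR (1584 to 205888) and 90020 in TERM (71309 to 151667), and the smooth muscle markers to 20913 (12360 to 253212) and 46105 (17240 to 106518). The liver marker miR-122-5p had medians of 682 CPM (75.2 to 34202) and 3372 CPM (723 to 37923). No marker had a median of 0, and their part in the result was not tested. Of the stromal list 3 rose and 3 fell. miR-125b-5p, miR-99a-5p and miR-411-5p were higher in LAR by 1.23, 1.06 and 1.04, and miR-29b-3p, miR-143-3p and miR-379-5p were lower by -1.19, -0.88 and -0.67.

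In thymus, miR-214-3p had 170 to 1337 CPM in 30 libraries of LAR (median 480) and 49.4 to 1028 in 28 of TERM (median 263). The ranges overlapped, and LAR was higher by 0.70 (SE 0.24, adjusted p = 0.036), where 14.1% of miRNAs in that tissue were called. Without libraries of another profile the difference was 1.16. In DESeq2 it was 0.57, and in edgeR with no filter 0.63 (adjusted p = 0.076), and neither passed. The other 3 members did not pass, with estimates of 0.07 to 0.42. Of the stromal list 6 of 18 rose and none fell, among them the imprinted-locus miRNAs miR-127-3p by 1.11, miR-411-5p by 0.84, miR-127-5p by 0.81 and miR-379-5p by 0.72, with miR-125b-5p by 0.59 and miR-145a-3p by 0.51. Blood and lymphoid markers summed to a median of 204888 CPM in LAR (24891 to 434848) and 269449 in TERM (13570 to 466447), endothelial markers to 11254 (3671 to 24661) and 6275 (2572 to 48152), and smooth muscle markers to 46378 (26424 to 80196) and 33116 (15327 to 64570). Striated muscle markers summed to 9109 CPM (261 to 61802) and 2669 (539 to 354800). None of these markers had a median of 0, and their part was not tested.

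**Figure D5:**
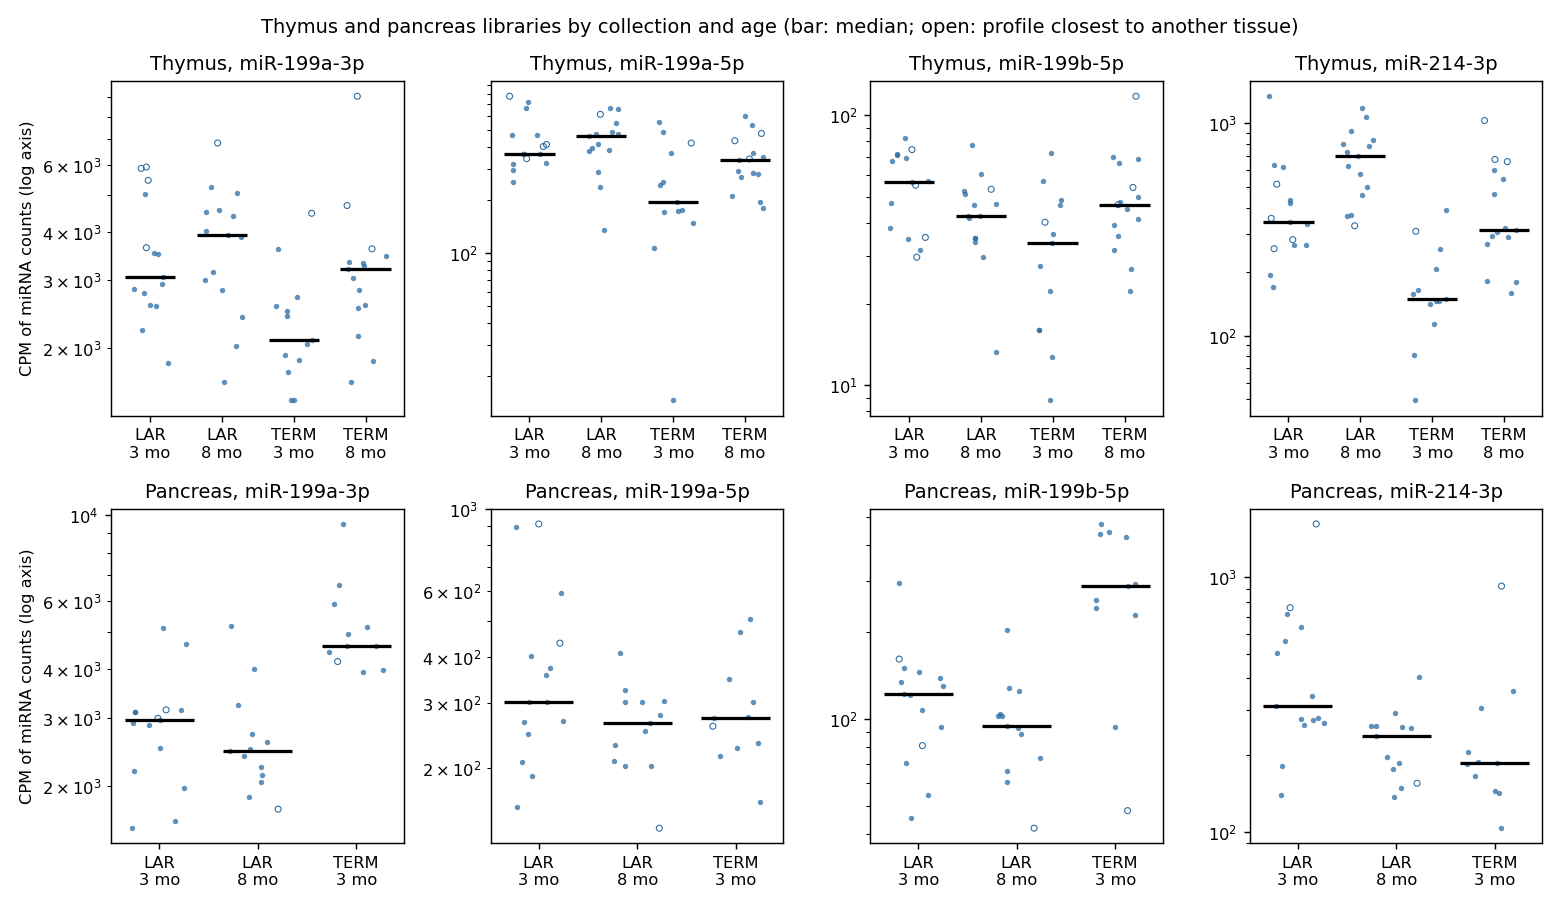
Levels of the 4 miRNAs in thymus (upper row) and pancreas (lower row) by collection and age, in CPM of miRNA counts on log axes; each point is 1 library, open points have another tissue's profile, and bars are medians. miR-214-3p in thymus has medians of 343 and 701 CPM in LAR and of 149 and 313 CPM in TERM at 3 and 8 months, and miR-199b-5p in pancreas is at a median of 289 CPM in TERM.

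The calls in kidney and MAT were lost in some settings and kept in others. In kidney, miR-199b-5p had 9.90 to 59.2 CPM in 29 libraries of LAR (median 31.3) and 25.7 to 200 in 28 of TERM (median 43.8), with wide overlap. The difference of -0.70 (SE 0.19, adjusted p = 0.044, where 1.09% of miRNAs in that tissue were called) was -0.37 (adjusted p = 0.26) without libraries of another profile. In MAT, miR-199b-5p had 18.7 to 401 CPM in 28 libraries of LAR (median 114) and 11.7 to 201 in 29 of TERM (median 66.9). The ranges overlapped, and the difference of 0.84 (adjusted p = 0.021, where 37.5% of miRNAs in that tissue were called) was 0.24 in 3 month mice alone (adjusted p = 0.78) and 0.76 with no filter (adjusted p = 0.054). It stayed called with library totals (0.79), in DESeq2 (0.75) and without the pools mixed in profile (1.16, adjusted p = 0.0032). Without libraries of another profile MAT could not be fitted, so the difference was not tested in the libraries that matched their label. Pancreas markers in MAT summed to a median of 44279 CPM in LAR (123 to 133555) and 522 in TERM (59 to 28740), blood and lymphoid markers to 25474 (10960 to 110298) and 91697 (4994 to 209237), and 24 of 28 and 22 of 29 libraries had another tissue's profile. No marker had a median of 0, and their part in the result was not tested. Of the stromal list 0 were called in kidney, and 6 rose and 2 fell in MAT, led by miR-152-3p at 2.48 and miR-29c-3p at 2.05 and, in the other direction, miR-145a-5p at -1.16.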

How the data were processed

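The authors mapped reads with miRMaster 2.0 to GRCm39 and miRBase and deposited estimated counts per miRNA (0.790% carry a fraction) and whole counts of 6 other small RNA classes, which entered only 1 scaling. Here CPM were taken over miRNA counts, with 1 CPM added before log2, in Python 3.11.15 (scipy 1.17.1). Counts rounded to whole numbers were fitted with edgeR 4.0.16 quasi-likelihood tests and TMM factors (R 4.3.3), per tissue, or over all tissues for the class contrast. A miRNA was tested with at least 5 counts in 10% of a group, and p-values were Benjamini-Hochberg adjusted over all miRNAs tested. DESeq2 1.42.0 was an alternative. The edgeR fit and the permutation tests were tried on simulated data, and the DESeq2 fit was not. Intervals and limits at a count of 0 cover counting error only. A library was set as of another profile when it correlated best with another tissue's median over 725 tissue-varying miRNAs, and mixed pools were those with over 1 in 3 such libraries. Named rows were the 4 members, the other arms of their hairpins, the 5 most alike miRNAs, and stromal miRNAs called beside a member. The members and lists were chosen with earlier results of these data known. The labels tie tissues to a mouse, which pairs the tissue classes. Over 66 pairs of tissues the members' deviations in the same mouse had median correlations of 0.00, 0.06, -0.00 and -0.01. Replicates are separate mice.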

Additional observations from a re-analysis of the deposited data

Results flagged for a closer look

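Among groups of 4 to 10 samples, 8 had a highest or lowest sample that lay apart from the rest by Dixon's 95% criterion. Chance alone sets apart about 1 in 20 groups, and 4 of 24 groups of whole-mouse deviations and 4 of 24 groups of brain levels met it, both on the log2 scale. On the CPM scale 11 of the 24 groups of brain levels met it. The whole-mouse deviations are on the log2 scale. The highest FL mouse of LAR had a miR-199a-3p deviation of 0.66. The lowest HGC mouse of LAR was the same mouse for both miR-199a-5p, at -0.79, and miR-214-3p, at -1.01. The lowest VGC mouse of TERM had a miR-199b-5p deviation of -0.68. In brain, the highest miR-199a-3p levels were 1649 CPM in FL of TERM and 2989 CPM in VGC of LAR, each apart from 3 others of the group. The brain levels of miR-199a-5p that lay apart were 114 CPM in HGC of LAR and 154 CPM in VGC of LAR, the latter in the library that also held the 2989 CPM. Groups of different miRNAs share mice and libraries, so they are not independent. The causes were not tested.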

How the results depend on the processing

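Of the values that answer a comparison, 364 were kept over the other settings. A test was kept if it stayed on the same side of the threshold, in the same direction where it passed. A count was kept within 1.5 times, and a tissue median within its SD. The settings included library totals in place of TMM factors, no count filter, DESeq2, 10 CPM in place of 1 and scaling to 7 RNA classes. Further ones left out tissues, mixed pools, libraries of another profile and single libraries. Of the other values, 1 lost its call and 5 counts moved by over 1.5 times or from 0. Without libraries of another profile, 1 of the age pairs was called in LAR and 1 in TERM, in both cases miR-214-3p in thymus, and 4 neighbours of the miR-199b-5p share passed. Between LAR and TERM, 2 pairs were called with no filter and 3 in 3 month mice alone, a setting chosen after seeing the data. The class difference of miR-199a-5p was 0.077 when scaled to 7 RNA classes. The cause of each was not tested. Named pairs of miRNA and tissue lost their call 10 times, and the class difference between the miR-199a arms 2 times, with the direction kept. With single libraries left out of brain and of pancreas of TERM, the arm comparisons called 0 pairs throughout. The VGC pancreas of TERM, with 2 libraries, was not reduced. Replicate numbers did not pair the arms (265 of 653 pairs of the same number had r over 0.1, and 85 of 676 libraries correlated best with their own number), and a replicate block called 0 pairs in each of the 6 comparisons. With the mouse as a block the class estimates were 1.13, 1.00, 1.35 and 2.08 and all stayed called. MAT without libraries of another profile could not be fitted for age in TERM. Groups of few mice, above all pancreas of TERM and brain, limit what the arm comparisons can show.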
